A study of Oryza sativa with 2 samples.

Results

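The loci described here are 306 short intervals of the rice (Oryza sativa) nuclear genome, each under 70 nt long, from which RNA of the intermediate size class was read. The rule that picked them, out of 1349 loci in all, uses position and length alone: nuclear chromosomes only, a length under 70 nt, and a position outside 3 stretches on chromosomes 1, 4 and 10 (33499000 to 33581000, 9085000 to 9194000 and 10729000 to 10845000). It was set with earlier results of these data known. The 3 stretches held 28 further nuclear loci under 70 nt, and chrC and chrM, the chloroplast and mitochondrial sequences, held 20. The other nuclear loci outside the stretches, 885 of 70 nt or longer, serve as the comparison below.

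The study sequenced non-coding RNA of 50 to 500 nt at 2 stages of development on the 454 pyrosequencing platform, with 1 library per stage. The stage 1 tissue is labelled as coleoptiles, radicals, shoot and tillering leaves, and the stage 2 tissue as anther, pistil and grouting embryo. The labels give no cultivar, genotype or treatment, and do not say whether or how the tissues were combined. In stage 1, 80651 reads fell on 838 listed loci, and in stage 2, 117798 reads fell on 1163. A single read was worth 12.4 reads per 1000000 library reads (RPM) in stage 1 and 8.49 RPM in stage 2. With no replicate library, no difference below has a replicate check, and each compares 2 libraries, not the stages. Intervals cover counting error only. Fewer cells of a type and less RNA per cell cannot be told apart in bulk RNA.

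RNAs of this size class include the small nuclear RNAs of the spliceosome, transfer RNAs, and the small nucleolar RNAs (snoRNAs), which guide methylation and pseudouridylation of ribosomal RNA. In plants many snoRNA genes lie close together on 1 strand and are transcribed as a single precursor, from which the individual RNAs are trimmed. Very short intervals can hold a small RNA gene, a fragment of a longer RNA, or a copy of a repeated or organelle sequence inserted in a chromosome. No RNA type was assigned to any of these loci, because no annotation of the files' genome build was used here.

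Most of the short loci were listed in the stage 2 library alone, and most rested on very few reads. Of the 306, 238 (77.8%) were listed in stage 2 only, 48 (15.7%) in stage 1 only and 20 (6.54%) in both libraries. Over all 1349 loci the same classes took 37.9%, 13.8% and 48.3%. Among the 885 longer nuclear loci they took 26.4%, 8.59% and 64.97%. The median was 3 reads per short locus over both libraries, against 26 per longer locus. Together the short loci held 538 stage 1 reads, 0.667% of the library (95% Clopper-Pearson interval 0.612 to 0.726), and 1409 stage 2 reads, 1.196% (1.13 to 1.26). The stage 2 to stage 1 ratio of their pooled RPM was 1.79 (95% exact conditional binomial interval 1.62 to 1.98).

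The listing must be read with the read number. Of the 306 short loci, 245 (80.1%) had 2 or 3 reads over both libraries, against 29.0% of the longer nuclear loci. Among the stage 2 only loci, 194 had 2 or 3 reads. That is at most 25.5 RPM, under the 37.2 RPM that a count of 0 still allows in stage 1 (a floor of 3 reads). A difference between the libraries was not detectable at this depth for those 194 loci. The same holds for the stage 2 only loci with 4 reads, which at 34.0 RPM also lay under 37.2 RPM. Of the 48 loci of stage 1 only, 44 had 2 or 3 reads and none had more than 7. The 22 with 2 reads lay under the 25.5 RPM that a count of 0 allows in stage 2, and the 26 with more reads lay above it, at 37.2 RPM or higher. When stage 2 was thinned to the stage 1 total, the expected number of stage 2 only loci fell to 168, beside 49.03 in stage 1 only and 18.2 in both.

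The next values set short beside longer loci of the same read number. Of 98 short loci with 2 reads in all, 1 had a read in each library, against 14 of 138 longer nuclear loci. Of 147 with 3 reads, 6 were in both libraries, against 15 of 119. Of 48 with 4 to 9 reads, 5 were in both, against 42 of 107. Equal entries, described below, weigh on these numbers, and no test was made of the difference.

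**Figure D1:**
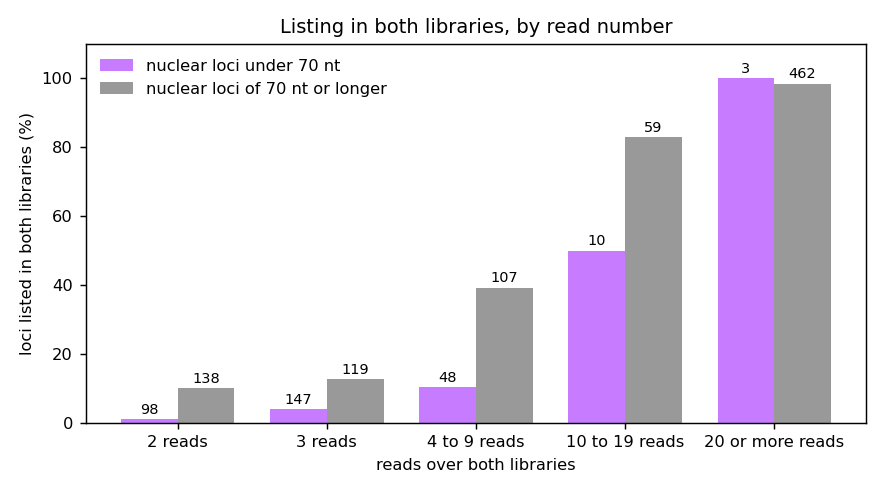
Share of loci listed in both libraries (percent, bars from 0) for nuclear loci under 70 nt and of 70 nt or longer, by the number of reads over both libraries; the figure over each bar is the number of loci. The short loci were at 1.02% and 4.08% with 2 and 3 reads, where the longer ones were at 10.1% and 12.6%, and the last pair of bars compares 3 short loci with 462 longer ones.

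Lengths ran from 40 to 69 nt with a median of 57 nt. The commonest length was 50 nt, with 48 loci, which is also the lower edge of the RNA fraction named in the protocol. A second peak of 29 loci lay at 54 nt, and 12 loci were shorter than 50 nt. The libraries divided unevenly over these lengths. Of 117 loci of 50 to 54 nt, 106 (90.6%) were in stage 2 only and 7 (5.98%) in stage 1 only. Of 58 loci of 60 to 64 nt, 38 (65.5%) were in stage 2 only and 17 (29.3%) in stage 1 only. In the next class, 65 to 69 nt, 10 of 72 loci (13.9%) were in both libraries, and it held the 3 loci with 20 reads or more.

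The limit of 70 nt does not fall in a gap of the length distribution. There were 12 loci of 69 nt, with 2 to 6 reads each, of which 2 were in both libraries. The best read of them were JNnc_loci0231, with 0 reads in stage 1 and 6 in stage 2, and, first by name among several with 3 reads, JNnc_loci0207, with 0 and 3. There were also 12 loci of 70 nt, with 2 to 64 reads each, and again 2 were in both libraries. JNnc_loci0264 led these with 11 and 53 reads, followed by JNnc_loci0187 with 1 and 12. Over wider classes the listing did change across the limit. Of 72 loci of 65 to 69 nt, 10 (13.9%) were in both libraries and 3 had 20 reads or more. Of 65 nuclear loci of 70 to 74 nt, 29 (44.6%) were in both and 16 had 20 reads or more.

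**Figure D2:**
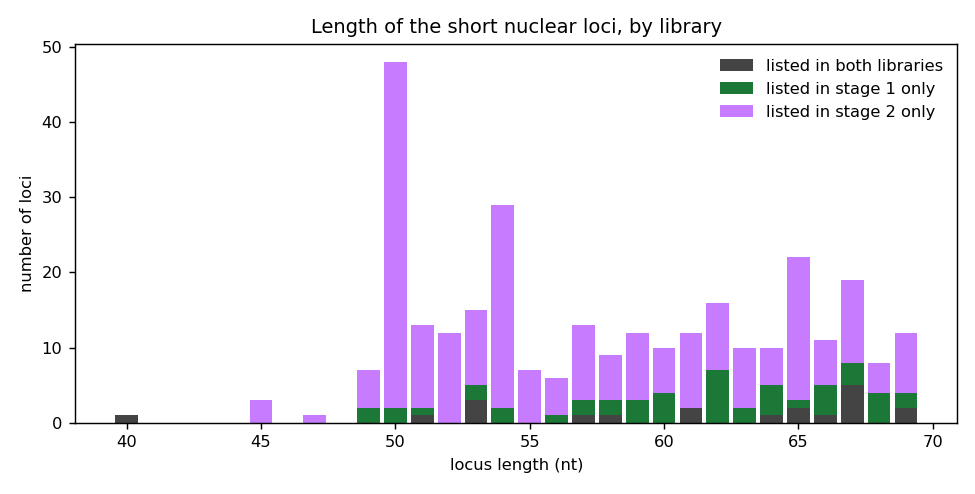
Number of short nuclear loci (vertical axis) at each length in nt (horizontal axis), stacked by the library that lists them. The bars at 50 nt (48 loci) and 54 nt (29 loci) are almost wholly stage 2 only, while stage 1 only loci are spread from 49 to 69 nt.

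The peak at 50 nt came from entries that were alike in every value. Of the 48 loci of 50 nt, 41 had exactly 0 reads in stage 1 and 3 in stage 2. They lay on 11 chromosomes, with 1 to 7 on each, 19 on the plus and 22 on the minus strand. Another 15 loci with 0 and 3 reads were 54 nt long and lay on 7 chromosomes. How reads with several matching positions were counted is not given in the labels or the lists, so whether each such group is 1 set of reads placed at many copies was not tested. If it is, the 41 loci stand for 3 reads and not for 123, which is 8.73% of the stage 2 reads of the short loci.

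Such likeness was widespread. Length and both counts were shared with another locus by 256 of the 306 short loci (83.7%), where 48.9% of all loci and 28.5% of the longer nuclear loci did so. Few values are possible at 2 or 3 reads, so weak loci can match by their small counts alone. Among loci with at least 10 reads, 8 of 13 short loci and 48 of 521 longer nuclear loci still shared all 3 values. The 306 loci had 110 distinct combinations of length and counts, and the largest group among the longer nuclear loci held 8. With each combination entered once, 68 were in stage 2 only, 29 in stage 1 only and 13 in both. The stage 2 only share was then 74.1% of 27 combinations at 50 to 54 nt and 57.1% of 28 at 60 to 64 nt.

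Well-read loci were few: 3 had 20 reads or more over both libraries, and they held 896 of the 1947 reads of the short loci (46.0%). Their balance between the libraries went in different directions. By the rule of 2-fold among loci with at least 20 reads, 1 of the 3 was higher in stage 2, where 32.9% of all such loci were, and 1 was lower, where 11.6% were. The first call ended when libraries were scaled to the median ratio of all loci with at least 20 reads, which is 1.39. Pooled, the 3 loci had 372 and 524 reads and a ratio of 0.964 (0.843 to 1.10), or 0.695 (0.607 to 0.796) under that scaling. The other 303 had 166 and 885 reads and a ratio of 3.65 (3.09 to 4.33). It was 2.63 (2.23 to 3.12) under that scaling, and unscaled 2.15 (1.71 to 2.72) with equal entries counted once. Longer nuclear loci with few reads also leaned to stage 2. At 2 or 3 reads the ratio was 2.98 (2.44 to 3.67) for short and 1.70 (1.43 to 2.03) for longer loci. At 4 to 9 reads it was 3.68 (2.64 to 5.25) and 1.60 (1.33 to 1.92). At 10 to 19 reads it was 19.3 (8.08 to 60.4) and 1.81 (1.55 to 2.12). The 19.3 rests on 10 short loci, of which 5 are alike at 1 and 14 reads and 3 at 0 and 17. If each set is the same reads entered several times, 19.3 counts them repeatedly and its interval is too narrow. That was not tested, and these read classes were not run with equal entries counted once. The short-locus intervals at fewer reads carry the same limit. No locus among these 303 had more than 17 reads.

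**Figure D3:**
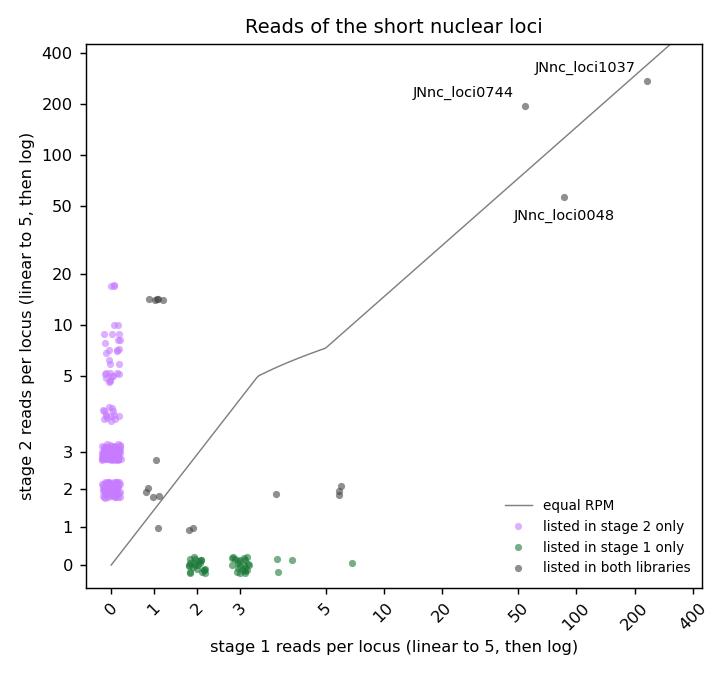
Stage 1 reads (horizontal) against stage 2 reads (vertical) of each of the 306 short loci, on axes that are linear to 5 reads and logarithmic above; points under 20 reads are jittered so that equal entries can be seen, and the line marks equal RPM. Only JNnc_loci1037, JNnc_loci0744 and JNnc_loci0048 stand above 20 reads, and most other points lie on the axis of 0 stage 1 reads.

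JNnc_loci1037, the most abundant short locus, is 65 nt long on the minus strand of chromosome 9 (14624343 to 14624407). It had 232 reads in stage 1 (2877 RPM) and 273 in stage 2 (2318 RPM), a ratio of 0.806 (0.674 to 0.964). It lies 131 nt from JNnc_loci1038 (85 nt), which had 116 and 112 reads and a ratio of 0.661 (0.505 to 0.865). JNnc_loci1039 (100 nt), the third locus of that cluster, had 133 and 410 reads and a ratio of 2.11 (1.73 to 2.59). The short locus and its nearest neighbour were thus lower in stage 2, and the intervals of both lay wholly under that of the third locus of the cluster.

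JNnc_loci0744 is 65 nt long on the plus strand of chromosome 6 (6783433 to 6783497). It had 54 reads in stage 1 (669.6 RPM) and 194 in stage 2 (1647 RPM), a ratio of 2.46 (1.81 to 3.39), or 1.77 (1.30 to 2.44) when scaled to the median ratio. It is the second of 6 loci in a row. JNnc_loci0743 (101 nt), 104 nt before it, had 59 and 317 reads and a ratio of 3.68 (2.78 to 4.94), with an interval that overlapped that of the short locus. JNnc_loci0745 (125 nt), on the other side, had only 5 and 5 reads and a ratio of 0.685 (0.158 to 2.97). The short locus was therefore far better covered than its neighbour on 1 side and of the same order as that on the other.

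JNnc_loci0048 is 66 nt long on the plus strand of chromosome 1 (13895805 to 13895870). It had 86 reads in stage 1 (1066 RPM) and 57 in stage 2 (483.9 RPM), a ratio of 0.454 (0.319 to 0.642). JNnc_loci0047 (87 nt) lies 90 nt before it and had 91 and 163 reads, a ratio of 1.23 (0.943 to 1.60). The pair had nearly equal counts in stage 1 and separate intervals of the ratio. Scaled to the median ratio, the longer locus was at 0.884 and the short one at 0.327.

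**Figure D4:**
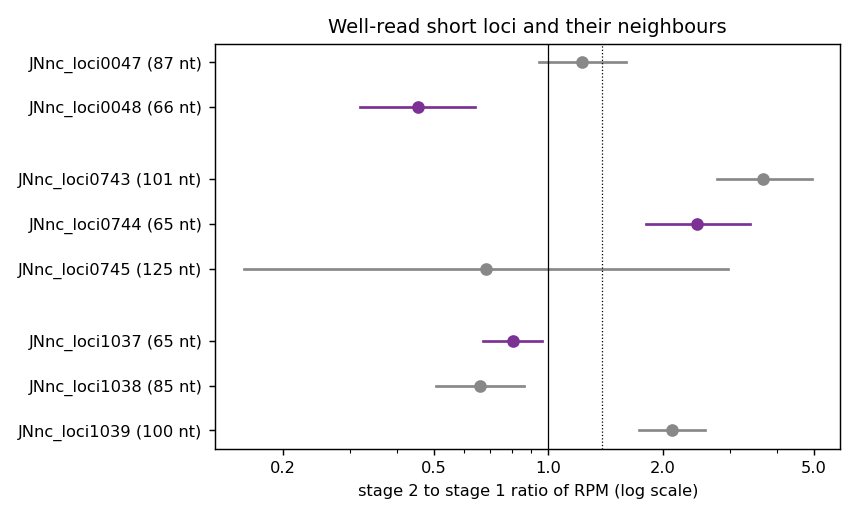
Stage 2 to stage 1 ratio of RPM (points, log axis) with the 95% interval for counting error (lines) for the 3 well-read short loci (purple) and the loci within 500 nt of them on the same strand (grey). The solid line is a ratio of 1 and the dotted line the median of all loci with at least 20 reads; JNnc_loci0048 at 0.454 lies left of its neighbour at 1.23.

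Close neighbours of this kind were rare for the other short loci. Another listed locus lay within 500 nt on the same strand for 14 of the 306 (4.58%), where 30.7% of all loci and 41.4% of the longer nuclear loci had one. All 3 well-read loci were among the 14, and the remaining 11 had 2 to 4 reads. Of the 14, 10 stood beside a locus of 70 nt or longer. At 2 or 3 reads the shares were 4.08% for short and 6.61% for longer nuclear loci. The median distance from a short locus to the next listed locus on its strand was 210020 nt.

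The second tier of read number, 10 to 19 reads, held 10 short loci in a few sets. A regular array on the plus strand at the start of chromosome 9 made up 5 of them. JNnc_loci1011, JNnc_loci1012, JNnc_loci1013, JNnc_loci1014 and JNnc_loci1015 are each 67 nt long and each had 1 read in stage 1 and 14 in stage 2. They start at 1875, 9803, 17731, 25659 and 33587, so every step between neighbours is exactly 7928 nt. No other locus was listed on chromosome 9 before 445014. The ratio of a single locus was 9.59 (1.46 to 405), and since all 5 may rest on the same 15 reads, they give 1 measurement and not 5. As background, the genes for the large ribosomal RNAs of rice lie in tandem units at the tip of the short arm of chromosome 9. Whether these loci belong to such units was not tested.

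**Figure D5:**
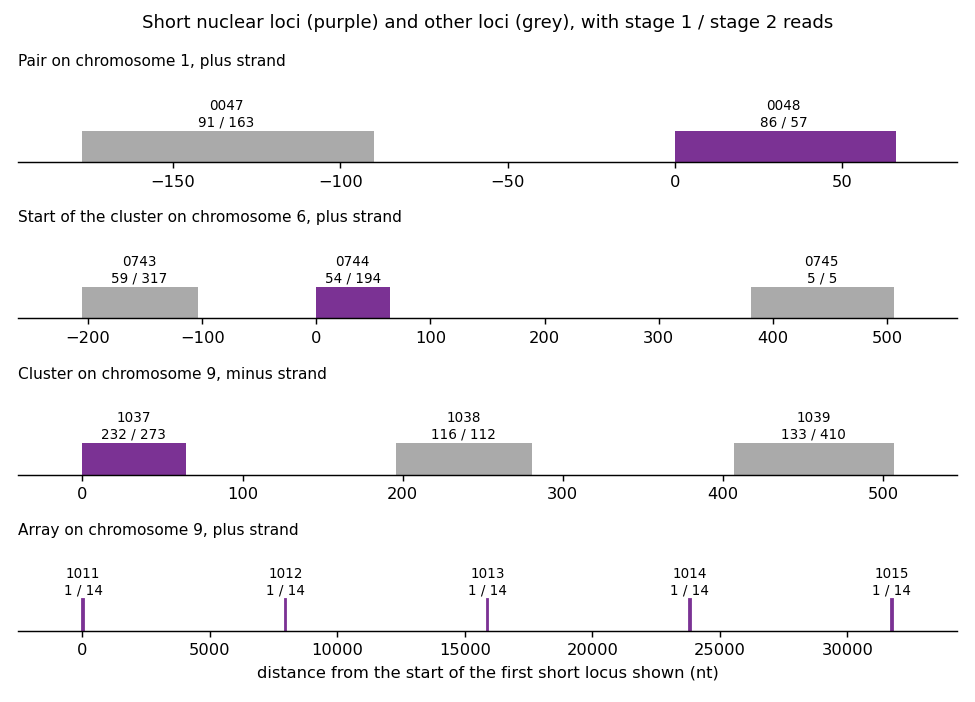
Positions of the well-read short loci and of the chromosome 9 array, as distance in nt along the chromosome from the start of the first short locus in each row; purple boxes are short nuclear loci, grey boxes other loci, with the last 4 digits of the name and the stage 1 / stage 2 reads. The 5 loci of the array repeat every 7928 nt with the same counts, while the neighbours in the upper rows differ in theirs.

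The remaining 5 loci of this tier had 0 reads in stage 1 and at least 10 in stage 2, a pattern that 1.93% of all loci showed. They were named for this pattern, so the bounds and limits above 1 below follow from that choice and test nothing. JNnc_loci1135 (chromosome 10, 20395081 to 20395125), JNnc_loci1225 (chromosome 12, 11281612 to 11281656) and JNnc_loci1230 (chromosome 12, 13348041 to 13348085) are 45 nt long with 17 stage 2 reads each. At 144 RPM they were at least 3.88-fold higher in stage 2 against the floor of 3 reads, or 2.80-fold when scaled to the median ratio. Both bounds leave out the counting error of the 17 reads. The exact lower 95% limit of the unscaled ratio was 2.83. They have the length and counts of JNnc_loci1300 on chrC, and whether all rest on the same reads was not tested. JNnc_loci0875 (65 nt, chromosome 7, 15905106 to 15905170) and JNnc_loci1179 (61 nt, chromosome 11, 21014289 to 21014349) had 10 stage 2 reads each. They were at least 2.28-fold higher against the same floor, or 1.64-fold when scaled to the median ratio, with an exact lower 95% limit of 1.53. Neither shared its length and counts with another locus.

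Some short loci had the values of organelle entries. At 50 of the 306 (16.3%) the length and the counts in both libraries were those of a chrC or chrM locus. The share was 16% of all 1281 nuclear loci (205), which include those inside the 3 stretches, and 8.47% of the longer nuclear loci outside them (75). All of the 205 beyond these 75 and the 50 short loci lay inside the stretches, so the 16% is not a share for loci outside them. The comparison of short with longer loci turned with read number. At 2 or 3 reads the share was 15.9% for short and 20.2% for longer nuclear loci, and at 4 or more it was 18.0% and 3.66%. Of the 50, 39 had 2 or 3 reads, where few values are possible, and 3 had 10 or more. At 13 of the 50, a second locus within 50000 nt kept the spacing and strand of the organelle pair to within 100 nt. This was not counted for other nuclear loci, so no background share can be set beside it. Some of the 13 were each other's second locus. JNnc_loci1135 had 5 such partners on chromosome 10, in inverted order, at distances from 986 to 15505 nt that differed by at most 10 nt from those on chrC. JNnc_loci0960 on chromosome 8 (53 nt, 6 and 2 reads) had 8 partners. JNnc_loci1247 and JNnc_loci1248 on chromosome 12, of 50 and 63 nt with 0 and 4 and with 0 and 3 reads, lay 7643.5 nt apart between midpoints, the same distance as their counterparts on chrM. These 3 loci lie outside the naming rule and were picked with their values known.

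An entry of 53 nt had reads in both libraries and more in stage 1 than in stage 2. JNnc_loci0776, JNnc_loci0960 and JNnc_loci1213, on chromosomes 6, 8 and 12, each had 6 and 2 reads, as did JNnc_loci1308 on chrC. JNnc_loci0776 and JNnc_loci0960 lie inside loci of 170 nt on the opposite strand with 13 and 8 reads. Overlap with a locus of the opposite strand was found for 4 of the 306 short loci, and was not counted for the longer ones. The other pair, JNnc_loci0984 and JNnc_loci0985 on chromosome 8 (65 nt, 0 and 3 reads each), overlapped JNnc_loci0983, which is 1227 nt long and had 337 and 89 reads. These loci too were picked with their values known.

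Repeated entries away from the organelle set were found at 4 to 9 reads, also picked with their values known. JNnc_loci0825, JNnc_loci1146 and JNnc_loci1202 are 52 nt long with 0 and 7 reads, on chromosomes 6, 11 and 12. The last pair lies close to the start of its chromosomes, at 238629 to 238680 on chromosome 11 and 254020 to 254071 on chromosome 12. As background, the ends of the short arms of rice chromosomes 11 and 12 are known to share a long duplicated segment. Whether this pair belongs to that segment was not tested. JNnc_loci0331, JNnc_loci0947, JNnc_loci0949 and JNnc_loci1007 are 60 nt long with 0 and 5 reads, 1 on chromosome 3 and the others on chromosome 8. JNnc_loci0565 and JNnc_loci1104, on chromosomes 4 and 10, are 55 nt long with 0 and 9 reads. All 9 of these loci were found in stage 2 only.

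Short loci occurred on all 12 nuclear chromosomes and on both strands, 156 plus and 150 minus. Their number ran from 14 on each of chromosomes 5, 9 and 10 to 37 on chromosome 1. As a share of the nuclear loci listed per chromosome outside the stretches, it ran from 15.7% of 89 on chromosome 5 to 35.0% of 80 on chromosome 12. Chromosome 5 was even between the libraries, with 6 short loci in stage 1 only, 7 in stage 2 only and 1 in both. Stage 2 only loci were the larger class on the other chromosomes, except that on chromosome 9 the array brought the loci in both libraries to 6 of 14, level with 6 in stage 2 only.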

How the data were processed

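Each library came as a headerless list of 6 columns. The counts deposited by the authors in column 5 were made by 454 sequencing of unamplified cDNA from size-selected RNA, per the labels' protocols. They are taken as raw reads for each locus, because they are whole numbers from 1 up with different totals. How reads were aligned, to which build, how loci were defined and how multiply matching reads were counted is not given in the sources used. A locus absent from a list was given 0 reads; no locus had fewer than 2 reads over both lists. Length is end minus start as deposited; printed starts were then raised by 1, assuming the BED convention.

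RPM are reads per 1000000 library reads. Ratios carry exact conditional binomial 95% intervals, and shares of reads Clopper-Pearson intervals (Python 3.11.15, scipy 1.17.1). Log2 ratios add 0.5 reads. The interval method was tested on simulated independent counts at loci with at least 20 reads. That setting does not cover weaker loci or reads entered at several loci. Thinning used the hypergeometric expectation. Reads are treated as independent molecules. Named loci are those with at least 20 reads, those with 0 against at least 10, those under 50 nt with at least 10, neighbours within 500 nt of the first set, and the best read at 69 and 70 nt; the array of chromosome 9 and others marked in the text fall outside this rule. The members and lists were chosen with earlier results of these data known. No count model could be fitted with 1 library per stage. No sequence is printed, since no genome was used here.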

Additional observations from a re-analysis of the deposited data

How the results depend on the processing

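The pooled ratio of the short loci stayed above 1 with its interval under every alternative run, from 1.22 with equal entries counted once to 3.905 for loci under 65 nt. It was 1.29 when scaled to the median locus and 2.54 without JNnc_loci1037. Its value without the 3 well-read loci, an alternative chosen after seeing the data, stands in the report. No run joined the median scale to equal entries counted once. With equal entries counted once, the 1.22 (1.09 to 1.37) lies below the median ratio of 1.39, so a pooled ratio above 1 under both is not shown. The listing moved with the length limit, which adds or removes loci, and with the treatment of equal entries, which merges them. Loci in both libraries numbered 10 under 65 nt, 49 under 75 nt and 13 with equal entries counted once, which also left 29 in stage 1 only and 68 in stage 2 only. At least 3 reads left 26 in stage 1 only. Loci at least 2-fold higher in stage 2 numbered 0 under 65 nt, 5 under 75 nt, 0 when scaled to the median locus and 11 at a minimum of 10 reads; those at least 2-fold lower numbered 0 under 65 nt and 2 under 75 nt. The median log2 ratio of the 3 well-read loci, -0.31, turned to 0.17 under 75 nt and to 2.73 at a minimum of 10 reads, since more loci enter. Under 65 nt no locus has 20 reads, so no median could be given. Loci with a close neighbour numbered 4 under 65 nt and 26 under 75 nt. Loci sharing length and counts numbered 8, and those repeating an organelle locus 3, at 10 or more reads. The spacing rule, chosen after seeing the data, kept 13 of the 50 loci that repeat an organelle locus at any read number. Scaling to the median locus, for single loci also chosen then, reversed JNnc_loci0047 to 0.884. In all, and with some of the values above among them, 44 alternative values for the main results and 20 for single loci kept their direction and their side of 1 or stayed within 1.5 times. No paired analysis was possible because no stage has a second library, and for that reason none was left out.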
